A study of Mus musculus with 6 samples.

Results

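Peroxiredoxins, glutathione peroxidases and catalase are the enzymes that break down hydrogen peroxide and lipid peroxides in cells. Their RNA levels were compared in mouse chondrocytes in which the transcription factor gene Irf1 was knocked down. The 10 genes described are Prdx1, Prdx2, Prdx3, Prdx4, Prdx5, Prdx6, Gpx1, Gpx3, Gpx4 and Cat, each matched by its symbol to exactly 1 of the 55377 gene rows of every library's count table. All 10 passed the filter on low counts and were among the 14683 genes tested.

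Chondrocytes, the cells that make cartilage matrix, were cultured from mouse articular cartilage and transfected with an siRNA against Irf1 (3 libraries) or with a control siRNA (3 libraries). RNA was taken 36 h later. Irf1 encodes interferon regulatory factor 1, and the study's title sets its loss in the context of DNA damage and osteoarthritis. The labels give no strain, age or sex of the mice, and no siRNA sequence. They also do not state whether replicates are separate cultures or animals: the p-values cover the spread seen among the 6 libraries, and that spread may be technical.

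Peroxiredoxins reduce peroxide with a cysteine, called the peroxidatic cysteine, and thioredoxin then returns most of them to the reduced state. The glutathione peroxidases Gpx1, Gpx3 and Gpx4 do the same chemistry with a selenocysteine, which is written into the RNA as a stop codon and read through by a dedicated machinery, and glutathione is their usual reductant. Catalase splits hydrogen peroxide inside peroxisomes without any such reductant. In cartilage, peroxide reaches chondrocytes from mitochondria, from folding of secreted proteins and from the cross-linking of collagen, and several antioxidant enzymes are known to be lower in osteoarthritic cartilage.

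The residue that does the work can be read in the coding sequence, and these windows are shown because they define which of the 10 genes use cysteine and which use selenocysteine. Each window is 27 bases of coding DNA, 5′ to 3′ on the gene's strand, from the GENCODE M21 annotation of GRCm38. Capitals mark the codon of the peroxidatic cysteine in the peroxiredoxins and the selenocysteine codon in the glutathione peroxidases.
Prdx1: tttacttttgtgTGTcccacggagatc
Prdx2: ttcacttttgttTGCcccacggagatc
Prdx4: ttcacctttgtgTGTccaactgaaatc
Prdx3: ttcacatttgtgTGTcctacagaaatt
Prdx6: tttaccccagtgTGCaccacagaactt
Prdx5: tttacacctggcTGTtctaagacccac
Gpx1: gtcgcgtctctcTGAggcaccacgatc
Gpx3: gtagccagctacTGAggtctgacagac
Gpx4: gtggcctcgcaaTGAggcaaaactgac
The Prdx1 window lies in codon 52 of 199 and in exon 3 of 6. Against it, the window matched at 24 of 27 bases in Prdx2, 22 in Prdx4, 21 in Prdx3, 17 in Prdx6 and 14 in Prdx5. Prdx1, Prdx2, Prdx3 and Prdx4 encode the typical peroxiredoxins, which work as dimers with a resolving cysteine on the partner chain, Prdx5 is the atypical form and Prdx6 the form with a single catalytic cysteine. The selenocysteine codon is codon 47 of 201 in Gpx1, 73 of 226 in Gpx3 and 73 of 197 in Gpx4. Catalase carries a haem and has neither site.

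Total counts per library were 22349142 to 26752065 with Irf1 siRNA and 28565096 to 29282494 with control siRNA, so every knockdown library was the shallower. Irf1 itself averaged 5.58 ± 0.471 CPM (counts scaled to a common library total) with Irf1 siRNA and 12.0 ± 0.759 CPM with control siRNA (SD, n = 3 each). It fell by 1.10 in log2 units (SE 0.11, adjusted p = 3.0e-06, edgeR's quasi-likelihood test with Benjamini-Hochberg adjustment). The 12 chondrocyte markers, with Col2a1 and Acan the most abundant, summed to 88934 to 116269 CPM with Irf1 siRNA and 88925 to 116499 CPM with control siRNA, and all 12 passed the filter. Col2a1 alone averaged 71709 ± 10930 CPM with Irf1 siRNA and 72194 ± 10899 CPM with control siRNA, so the sum says little of the rest. Of the 12, 3 were called by edgeR: Hapln1, the link protein of the aggrecan network, fell (915.1 ± 59.7 CPM with Irf1 siRNA and 1877 ± 36.7 CPM with control siRNA, log2 fold change -1.04, adjusted p = 1.6e-08). Chad, a matrix protein, fell by 0.54 in log2 units (adjusted p = 0.0316, but 0.0765 without Irf1 siRNA replicate 1 and 0.0806 without control siRNA replicate 2), and Prg4, the lubricin of the cartilage surface, rose by 0.46 (adjusted p = 0.00112), all by edgeR. Erythroid markers, which matter for Prdx2, Gpx1 and Cat because red cells are rich in them, summed to no more than 0.0854 CPM with Irf1 siRNA and 0.107 CPM with control siRNA, and 7 of the 9 with a row in the count tables had no count in any library, Alas2 and Hbb-bs among them.

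Other cell types could be present in such a culture, and the summed levels of 4 of their marker lists did not overlap between the groups. Macrophage markers summed to 21.1 to 21.7 CPM with Irf1 siRNA and 16.2 to 20.6 CPM with control siRNA; 4 of 12 passed the filter. Of these Cd14 and Cd68 rose (Cd14 alone without any 1 Irf1 siRNA replicate or without control siRNA replicate 2), while Mrc1 and Lyz2 were not called, Lyz2 at 0.975 ± 0.191 CPM with Irf1 siRNA and 1.57 ± 0.251 CPM with control siRNA (log2 fold change -0.69, adjusted p = 0.0566, edgeR). Below the filter, Csf1r had 21 counts in all with Irf1 siRNA and 33 with control siRNA, Ptprc had 9 with Irf1 siRNA and 20 with control siRNA, and Adgre1 had no count in any library. Adipocyte markers summed to 22.4 to 25.3 CPM with Irf1 siRNA and 18.4 to 22.1 CPM with control siRNA, and 3 of 8 passed the filter. Of these 1 rose: Plin4, at 7.56 ± 0.744 CPM with Irf1 siRNA and 4.53 ± 0.861 CPM with control siRNA. Fabp4, the most abundant, was not called (log2 fold change 0.04, adjusted p = 0.846, edgeR). Below the filter, Adipoq and Lep had no count with Irf1 siRNA, and 6 and 4 with control siRNA. Retn had 3 with Irf1 siRNA and 1 with control siRNA. Fibroblast markers, which cultured chondrocytes also express, summed to 6063 to 7161 CPM with Irf1 siRNA and 8053 to 9576 CPM with control siRNA, and 3 of the 9 that passed the filter fell: Col1a1, Col1a2 and Col3a1. Osteoblast markers summed to 54.7 to 80.5 CPM with Irf1 siRNA and 83.4 to 109.0 CPM with control siRNA, and 4 of 8 passed the filter. By edgeR 0 of these 4 were called, as by DESeq2 (1 lower with the replicate number as a block). Bglap was the higher with Irf1 siRNA (log2 fold change 1.13) and Phex the lower (-0.64), each with an unadjusted p under 0.05 by edgeR. Most of the sum is Ibsp, at 45.3 ± 13.7 CPM with Irf1 siRNA and 74.2 ± 14.7 CPM with control siRNA (adjusted p = 0.182, edgeR). Endothelial markers summed to 2.25 to 2.48 CPM with Irf1 siRNA and 1.82 to 2.26 CPM with control siRNA. The part of these cells in the results on the peroxidases was not tested, and in bulk RNA fewer cells of a type and less RNA per cell cannot be told apart.

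The Irf1 knockdown went with opposite changes inside the peroxidase set. Prdx1 rose by 40.4%, Prdx6 fell by 20.3%, Prdx3 fell by 17.4% and Gpx3 fell by 13.0%, and 6 genes were not called: Prdx2, Prdx4, Prdx5, Gpx1, Gpx4 and Cat. Of the 10 genes 4 were therefore called at an adjusted p under 0.05 by edgeR, 1 higher and 3 lower. Over all 14683 genes tested, 22.4% were called, 10.4% higher and 12.0% lower. In 4 of the 10 genes the groups did not overlap, and this held for 38.1% of all genes tested. The median log2 fold change was -0.04 over the 10 genes and 0.00 over all genes tested. With only 10 genes, nothing particular to the set is read from these shares.

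**Figure D1:**
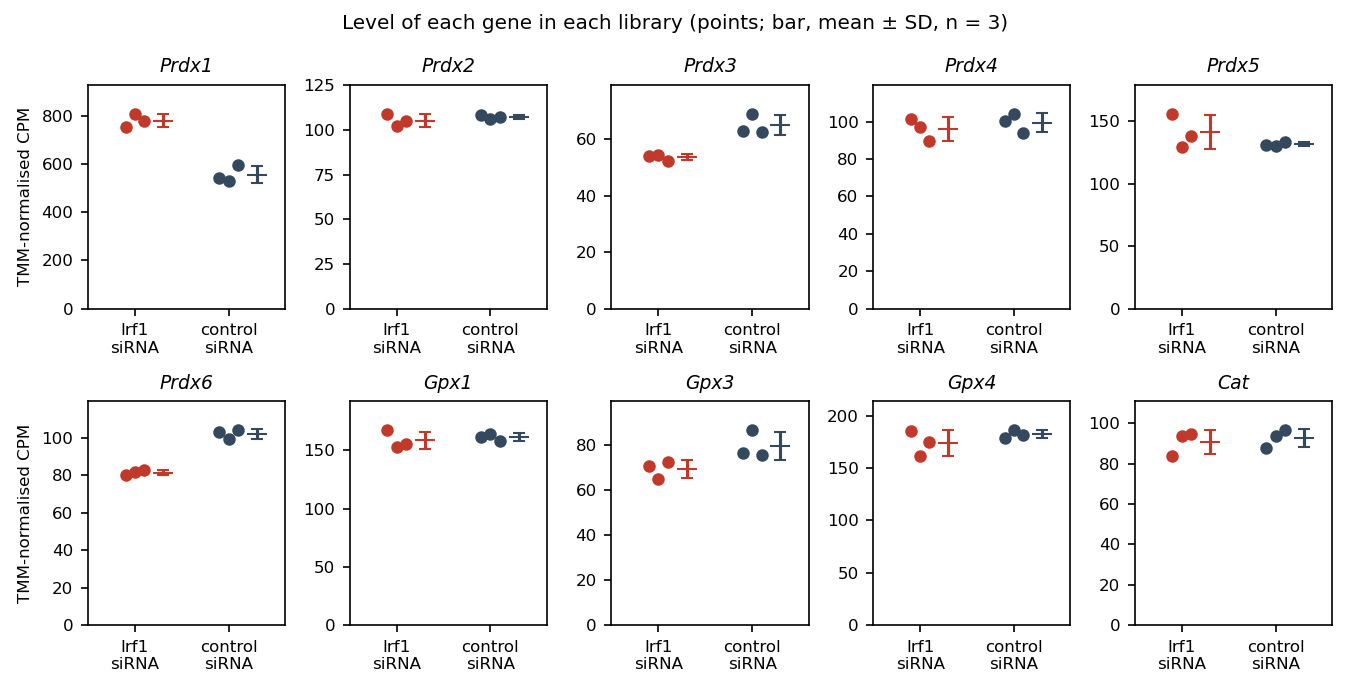
TMM-normalised CPM of each of the 10 genes in every library, with Irf1 siRNA left of control siRNA; points are libraries and bars the mean ± SD (n = 3). The groups are apart for Prdx1, where the Irf1 siRNA libraries are the higher, and for Prdx3, Prdx6 and Gpx3, where they are the lower.

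Prdx1, the abundant cytosolic and nuclear peroxiredoxin (identifier ENSMUSG00000028691.13, chr4:116685544-116700822 on the plus strand of GRCm38), had the largest change and the smallest p of the 10. It stood at 753.0, 808.4 and 776.4 CPM in the Irf1 siRNA libraries, against 541.5, 528.4 and 594.8 CPM in the control siRNA libraries. Every knockdown library lay above every control library, with a gap far wider than the spread within a group. The means were 779.3 ± 27.8 CPM with Irf1 siRNA and 554.9 ± 35.1 CPM with control siRNA (SD, n = 3 each). The log2 fold change was 0.49 (SE 0.06, 95% interval 0.36 to 0.62, adjusted p = 3.0e-05, edgeR), and Prdx1 ranked 289 by p among all genes tested. The values rest on at least 16680 counts in an Irf1 siRNA library and 14902 in a control siRNA library. The call was made under all 13 alternative settings, and leaving out any library gave log2 fold changes of 0.45 to 0.54.

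Prdx2 and Prdx4 are the nearest relatives of Prdx1 by the active-site window, and neither was called. Prdx2, the cytosolic peroxiredoxin best known from red cells and neurons, had 109.1, 102.0 and 104.7 CPM with Irf1 siRNA, against 108.2, 105.9 and 107.4 CPM with control siRNA. The groups overlapped, and the 95% interval of the log2 fold change ran from -0.14 to 0.09 (estimate -0.03, SE 0.05, adjusted p = 0.775, edgeR). Prdx4, the secretory-pathway peroxiredoxin that uses peroxide in protein folding, had 101.6, 97.3 and 89.4 CPM with Irf1 siRNA and 100.2, 104.2 and 94.1 CPM with control siRNA. Its interval ran from -0.18 to 0.08 (estimate -0.05, SE 0.06, adjusted p = 0.613, edgeR). Both intervals lie below that of Prdx1, though the difference between genes was not itself tested.

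Prdx3 and Prdx5 both act in mitochondria. Prdx3, the main peroxiredoxin of the mitochondrial matrix (ENSMUSG00000024997.8, chr19:60864051-60874556 on the minus strand of GRCm38), had 53.9, 54.4 and 52.4 CPM in the Irf1 siRNA libraries, against 63.0, 69.0 and 62.6 CPM in the control siRNA libraries. Every knockdown library was lower than every control library, and the knockdown libraries lay close together. Prdx3 averaged 53.5 ± 1.05 CPM with Irf1 siRNA and 64.8 ± 3.58 CPM with control siRNA, a log2 fold change of -0.28 (SE 0.06, 95% interval -0.40 to -0.15, adjusted p = 0.00373, edgeR). This call too was made under all 13 alternatives, with -0.30 to -0.23 when single libraries were left out.

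Prdx5, which is found in mitochondria, peroxisomes and cytosol, had 155.9, 129.5 and 138.1 CPM with Irf1 siRNA and 131.2, 130.0 and 133.4 CPM with control siRNA. Replicate 1 with Irf1 siRNA was the highest and replicate 2 the lowest of all 6 libraries, so the groups overlapped. The log2 fold change was 0.10 (SE 0.07, 95% interval -0.04 to 0.24, adjusted p = 0.299, edgeR). Prdx5 shares 409 exonic bases with Trmt112 on the opposite strand, and Prdx2 shares 177 with Rnaseh2a and 173 with Junb, in the GRCm38 annotation. Because the strand setting of the counting is not given in the sources used here, reads of these overlaps may be assigned to either gene. None of Trmt112, Rnaseh2a and Junb was called (adjusted p = 0.440, 0.535 and 0.458, edgeR).

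Prdx6, which besides peroxidase activity has a phospholipase activity and reduces oxidised phospholipids (ENSMUSG00000026701.16, chr1:161240112-161251219 on the minus strand of GRCm38), was the most firmly lower of the 10. It had 80.0, 81.8 and 82.8 CPM in the Irf1 siRNA libraries, against 103.3, 99.4 and 104.2 CPM in the control siRNA libraries. The groups stood well apart, with a spread within each of only a few CPM. Prdx6 averaged 81.5 ± 1.43 CPM with Irf1 siRNA and 102.3 ± 2.55 CPM with control siRNA, a log2 fold change of -0.33 (SE 0.05, 95% interval -0.44 to -0.21, adjusted p = 0.000464, edgeR). It was called under all 13 alternatives, and leaving out single libraries gave -0.35 to -0.31.

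Of the 3 selenium-dependent glutathione peroxidases, the secreted one was called. Gpx3, the extracellular glutathione peroxidase (ENSMUSG00000018339.13, chr11:54902453-54910377 on the plus strand of GRCm38), had 70.6, 64.9 and 72.7 CPM in the Irf1 siRNA libraries, against 76.5, 86.8 and 76.0 CPM in the control siRNA libraries. The groups did not overlap, but replicate 3 with Irf1 siRNA lay close to control replicates 1 and 3. Gpx3 averaged 69.4 ± 4.03 CPM with Irf1 siRNA and 79.7 ± 6.12 CPM with control siRNA, a log2 fold change of -0.20 (SE 0.07, 95% interval -0.34 to -0.06, adjusted p = 0.0417, edgeR). This call is fragile. It was made under only 5 of the 13 alternatives, and it was lost with upper-quartile factors (adjusted p = 0.0723), with library totals alone (0.0727) and with DESeq2 (0.0542). Nor did it hold without Irf1 siRNA replicate 1 (adjusted p = 0.0575), 2 (0.130) or 3 (0.0579) or without control siRNA replicate 1 (0.0523) or 2 (0.216), all by edgeR.

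Gpx1 and Gpx4 were not called. Gpx1, the cytosolic and mitochondrial enzyme that reduces hydrogen peroxide, had 167.3, 153.2 and 155.2 CPM with Irf1 siRNA and 161.7, 164.4 and 157.7 CPM with control siRNA. Its log2 fold change was -0.02 (SE 0.06, 95% interval -0.14 to 0.09, adjusted p = 0.798, edgeR), and with upper-quartile factors its sign turned. Gpx4, which reduces lipid peroxides in membranes and restrains ferroptosis, had 185.6, 161.4 and 174.8 CPM with Irf1 siRNA and 178.7, 186.0 and 181.5 CPM with control siRNA. Its log2 fold change was -0.07 (SE 0.06, 95% interval -0.19 to 0.06, adjusted p = 0.472, edgeR). In both genes the groups overlapped.

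Cat, the peroxisomal catalase, had 83.8, 93.6 and 94.6 CPM with Irf1 siRNA and 87.7, 93.9 and 96.5 CPM with control siRNA. Its log2 fold change was -0.03 (SE 0.06, 95% interval -0.17 to 0.10, adjusted p = 0.768, edgeR), and its sign turned without Irf1 siRNA replicate 1, the lowest library. The groups overlapped throughout.

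**Figure D2:**
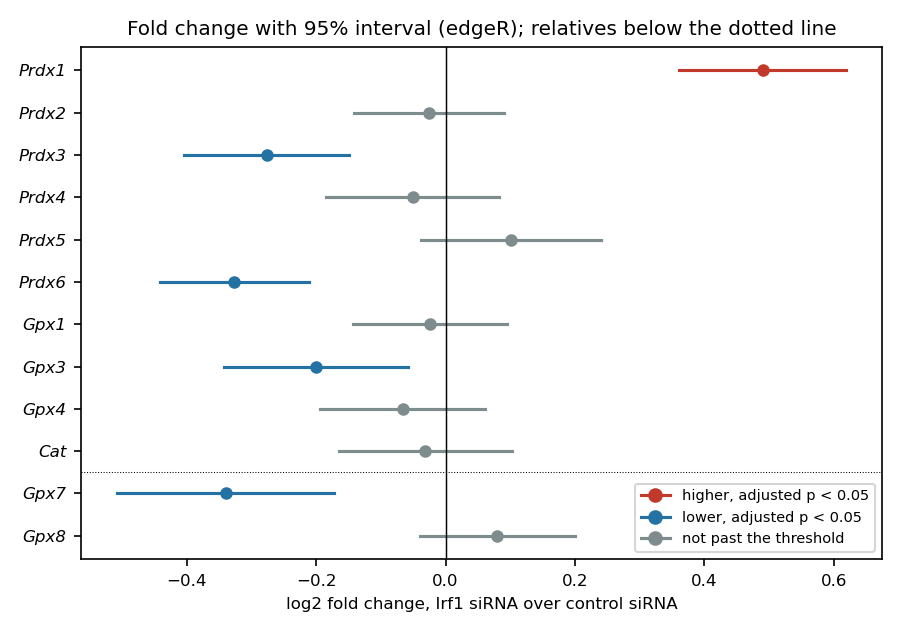
Log2 fold changes, Irf1 siRNA over control siRNA, with 95% intervals from the edgeR fit for the 10 genes and, below the dotted line, for their relatives Gpx7 and Gpx8; colour marks genes called higher, called lower and not called. Prdx1 is the only gene whose interval lies wholly above 0, and those of Prdx3, Prdx6, Gpx3 and Gpx7 lie wholly below it.

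A further 6 mouse genes belong to the same families, of which Gpx7 and Gpx8 passed the filter. Gpx7, a glutathione peroxidase of the endoplasmic reticulum that uses cysteine in place of selenocysteine, had 47.7, 38.6 and 39.9 CPM with Irf1 siRNA, against 54.4, 55.6 and 49.6 CPM with control siRNA. It fell by 0.34 in log2 units (SE 0.08, adjusted p = 0.00577, edgeR), with no overlap between the groups. Gpx8, its partner in the same compartment, had a log2 fold change of 0.08 (SE 0.06, adjusted p = 0.344, edgeR). Prdx6b and Gpx2 had no more than 3 counts summed over a group, and Gpx5 and Gpx6 had none. The processed pseudogene Gpx4-ps2 was counted at 361, 431 and 404 reads with Irf1 siRNA and at 475, 508 and 514 with control siRNA, while Gpx4 had 4094 to 4444 with Irf1 siRNA and 5010 to 5375 with control siRNA, so some Gpx4 reads may be assigned to the copy.

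The make-up of the peroxiredoxin counts, which are not scaled to gene length here, differed between the groups. Prdx1 held 60.1%, 63.5% and 62.4% of the counts of the 6 peroxiredoxin genes in the Irf1 siRNA libraries, against 51.7%, 51.0% and 54.2% in the control siRNA libraries. The share of Prdx6 was 6.49 ± 0.148% with Irf1 siRNA and 9.65 ± 0.188% with control siRNA (SD, n = 3 each), and that of Prdx3 was 4.26 ± 0.0447% with Irf1 siRNA and 6.12 ± 0.481% with control siRNA. A share depends on the other genes in the sum, so a share can be lower where the level is not. Summed, the 6 peroxiredoxins reached 1257 ± 15.1 CPM with Irf1 siRNA and 1060.2 ± 31.8 CPM with control siRNA. Without Prdx1 the sum was 477.6 ± 19.8 CPM with Irf1 siRNA and 505.4 ± 3.45 CPM with control siRNA. The 3 glutathione peroxidases summed to 402.0 ± 22.1 CPM with Irf1 siRNA and 423.1 ± 12.2 CPM with control siRNA. These sums and shares are descriptions and were not tested.

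**Figure D3:**
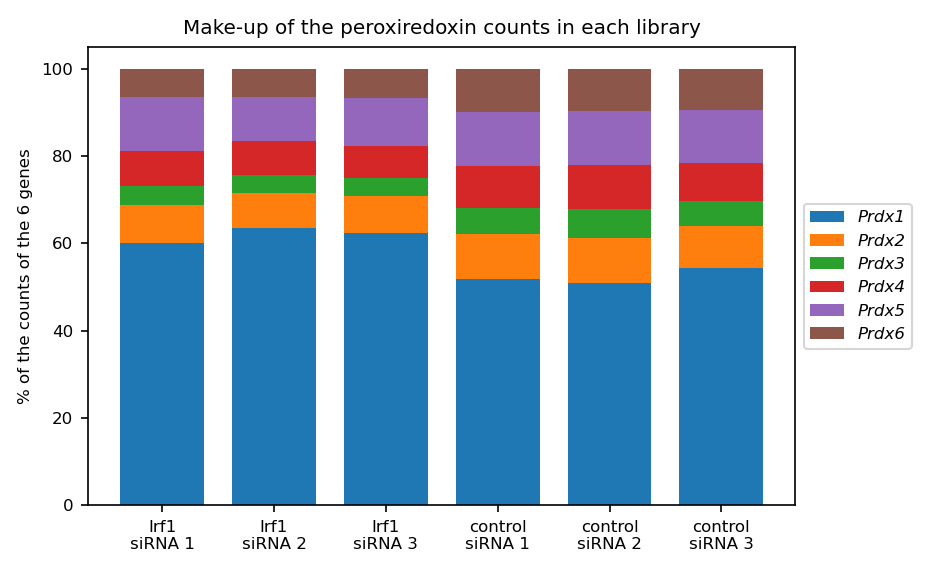
Share of each peroxiredoxin in the summed counts of the 6 genes (percent), 1 bar per library, with the 3 Irf1 siRNA libraries left of the 3 control siRNA libraries. The Prdx1 share is 60.1% to 63.5% in the Irf1 siRNA libraries and 51.0% to 54.2% in the control siRNA libraries.

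Levels of different genes can be compared only per length, here as CPM per kilobase of annotated exon. Prdx1 was the highest of the 10 on this scale, at 256.1 ± 9.13 with Irf1 siRNA and 182.4 ± 11.5 with control siRNA. Gpx1 followed at 110.0 ± 5.31 with Irf1 siRNA and 111.9 ± 2.31 with control siRNA, and Gpx4 at 100.9 ± 7.04 with Irf1 siRNA and 105.6 ± 2.14 with control siRNA. Prdx6 was the lowest, at 17.0 ± 0.297 with Irf1 siRNA and 21.3 ± 0.532 with control siRNA. Prdx5, Prdx4, Gpx3, Prdx3, Cat and Prdx2 lay between, in that order by mean in both groups. With Irf1 siRNA the neighbours Gpx1 and Gpx4, Gpx3 and Prdx3, Prdx3 and Cat, and Cat and Prdx2 overlapped in their library values. With control siRNA the overlapping neighbours were Prdx4 and Gpx3, Gpx3 and Prdx3, and Cat and Prdx2. The order depends on the length used. With the length of the principal transcript, Cat was the lowest in the control siRNA libraries at 35.5, below Prdx6 at 42.8. In the same libraries Gpx4 at 189.8 stood above Gpx1 at 150.4, while Prdx1 stayed first at 241.9. With Irf1 siRNA, Prdx6 at 34.2 stayed just below Cat at 34.7 on that scale.

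**Figure D4:**
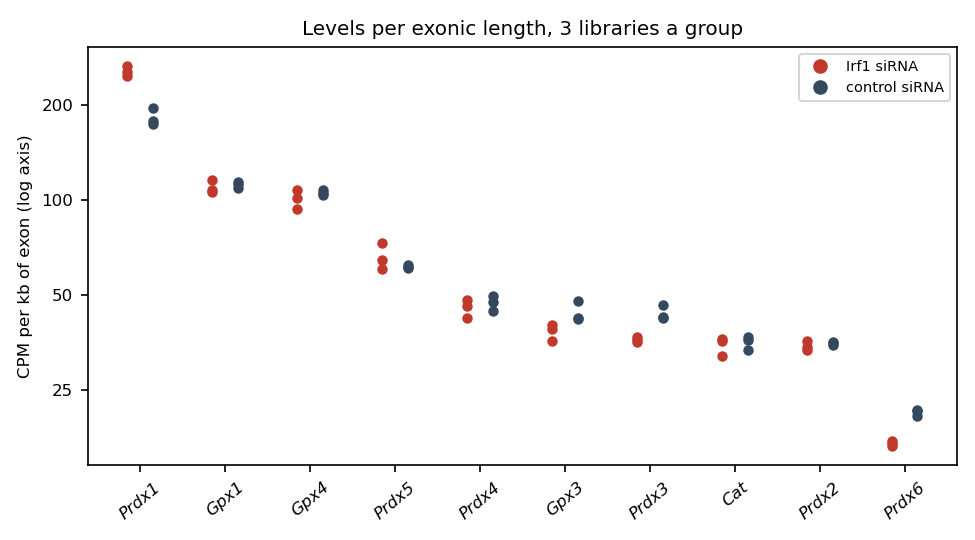
CPM per kilobase of annotated exon (log axis) for the 10 genes, ordered by their mean in the control siRNA libraries; points are libraries, with Irf1 siRNA left of control siRNA. Prdx1 lies above the other 9 genes in all 6 libraries and Prdx6 below them.

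Peroxiredoxins are returned to their working state by thioredoxin, and an over-oxidised cysteine is rescued by sulfiredoxin. Of the 16 tested genes of this recycling list, 5 rose (Srxn1, Txnrd1, Glrx2, Glrx5 and Txnip) and 2 fell (Nxn and Sesn3), with a median log2 fold change of 0.07. Srxn1, the sulfiredoxin that repairs Prdx1 to Prdx4, had 111.7, 118.3 and 118.6 CPM with Irf1 siRNA, against 91.7, 87.6 and 96.3 CPM with control siRNA, and rose by 0.34 in log2 units (SE 0.06, adjusted p = 0.000582, edgeR). Txnrd1, the cytosolic thioredoxin reductase and itself a selenoprotein, had 206.4, 230.8 and 219.1 CPM with Irf1 siRNA, against 177.2, 163.6 and 195.2 CPM with control siRNA, and rose by 0.29 (SE 0.07, adjusted p = 0.00598, edgeR). In both genes every knockdown library was above every control library, as for Prdx1.

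The remaining genes of that list went either way or were not called. Txn1, the cytosolic thioredoxin that lies between Txnrd1 and Prdx1, was not called, at 214.7 ± 13.8 CPM with Irf1 siRNA and 232.0 ± 20.6 CPM with control siRNA (log2 fold change -0.11, adjusted p = 0.275, edgeR). Nxn, a thioredoxin-like protein, fell by 0.53 in log2 units (SE 0.07, adjusted p = 4.3e-05, edgeR), and Sesn3, a stress-induced sestrin, fell by 0.45 (SE 0.07, adjusted p = 0.000166, edgeR). The calls of Txnip, an inhibitor of thioredoxin, and Glrx5, a mitochondrial glutaredoxin, did not hold when single libraries were left out. Txnip missed the threshold without Irf1 siRNA replicate 1 (adjusted p = 0.0952) or 2 (0.0533) or control siRNA replicate 3 (0.0810), and Glrx5 without Irf1 siRNA replicate 1 (0.0614) or control siRNA replicate 2 (0.0817), all by edgeR. Without Irf1 siRNA replicate 1 the list had 3 genes higher in place of 5.

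**Figure D5:**
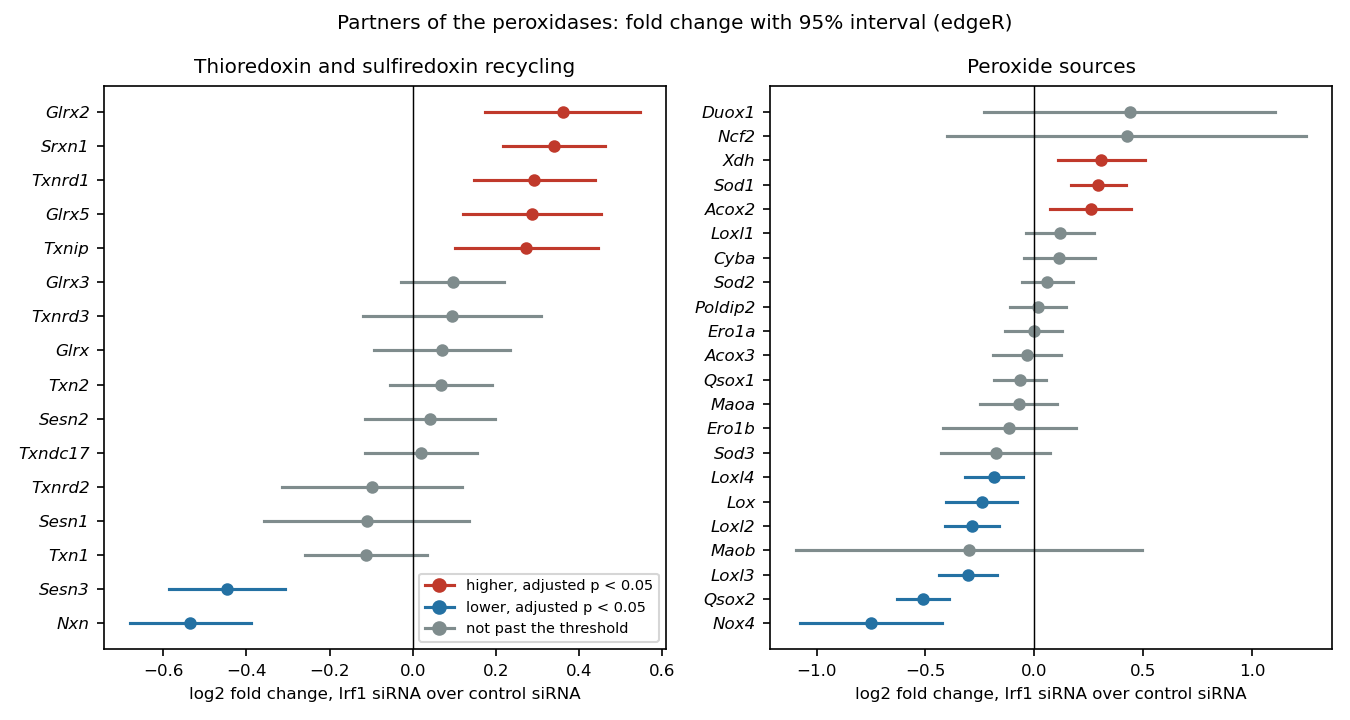
Log2 fold changes, Irf1 siRNA over control siRNA, with 95% intervals (edgeR) for the tested genes of thioredoxin and sulfiredoxin recycling (left) and, but for 1 gene not shown, of enzymes that make peroxide or superoxide (right); colour marks genes called higher, called lower and not called. Srxn1 and Txnrd1 lie above 0 in the left panel, and Qsox2 and most called genes of the right panel lie below it.

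Glutathione, the reductant of the glutathione peroxidases, is made and kept reduced by a list of genes of which 22 were tested, with 2 higher, 1 lower and a median log2 fold change of 0.07. Gclc, the catalytic subunit of the rate-limiting enzyme of glutathione synthesis, had 55.4, 69.7 and 62.9 CPM with Irf1 siRNA, against 44.3, 44.6 and 45.0 CPM with control siRNA, a rise of 0.49 (log2, SE 0.07, adjusted p = 0.000210, edgeR). Chac1, which degrades glutathione, was higher as well (log2 fold change 0.29, adjusted p = 0.0125, edgeR), but not once Irf1 siRNA replicate 1 was left out (adjusted p = 0.0529, edgeR). Slc25a39, the carrier that brings glutathione into mitochondria, had 114.8, 98.4 and 106.4 CPM with Irf1 siRNA, against 163.7, 172.0 and 146.4 CPM with control siRNA, and fell by 0.59 (log2, SE 0.07, adjusted p = 2.1e-05, edgeR). Gsr, which regenerates glutathione, was not called (log2 fold change 0.15, SE 0.06, adjusted p = 0.0796, edgeR). The list had 4 genes higher with upper-quartile factors, and 2 lower without Irf1 siRNA replicate 2 or control siRNA replicate 3.

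Selenocysteine enters Gpx1, Gpx3 and Gpx4 through a shared machinery. Of 13 tested genes of this machinery and of the supply of selenium to cells, 1 was called. That gene was Lrp8, a receptor that takes up the selenium carrier selenoprotein P (log2 fold change 0.23, SE 0.06, adjusted p = 0.0164), which rose, and it was not called without Irf1 siRNA replicate 3 (adjusted p = 0.0975) or control siRNA replicate 2 (0.0748), all by edgeR. Without control siRNA replicate 1, with no filter or with the replicate number as a block, 2 genes of this list were higher. Secisbp2, the protein that binds the selenocysteine insertion element, was not called (log2 fold change 0.12, adjusted p = 0.297, edgeR). Of 13 other tested selenoprotein genes, 1 rose and 1 fell. Selenon, a selenoprotein of the endoplasmic reticulum, had 54.4, 50.8 and 51.8 CPM with Irf1 siRNA, against 84.4, 84.3 and 80.6 CPM with control siRNA, and fell by 0.67 (log2, SE 0.06, adjusted p = 7.0e-07, edgeR). Selenow was higher by 0.19 (log2, adjusted p = 0.0461, edgeR), and its call was lost without Irf1 siRNA replicate 1 or 3 or any 1 of the control siRNA replicates (adjusted p = 0.0701 to 0.204, edgeR). The number of these genes called higher was 2 without control siRNA replicate 3, with upper-quartile factors, with a mean of at least 1 CPM as the filter or with the replicate number as a block.

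Of 23 tested genes whose products make peroxide or superoxide, 3 rose and 7 fell, with a median log2 fold change of -0.07. Among the falls, the calls of Lox and Loxl4 were each lost under 6 of the 13 alternatives. The 4 called genes with the smallest p were lower. Next by p came Sod1, which rose, with an adjusted p of 0.00239 by edgeR, close to that of Loxl2 and Loxl3. Qsox2, a sulfhydryl oxidase that releases peroxide as it forms disulfides, had 50.7, 53.1 and 50.8 CPM with Irf1 siRNA, against 74.4, 74.6 and 71.3 CPM with control siRNA, and fell by 0.51 (log2, SE 0.06, adjusted p = 1.0e-05, edgeR). The lysyl oxidase-like genes Loxl2 and Loxl3, whose products release peroxide while cross-linking collagen, fell by 0.28 and 0.31 (log2, adjusted p = 0.00233 for each, edgeR). Loxl1 was not called (log2 fold change 0.12, adjusted p = 0.281, edgeR).

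The superoxide dismutases differed among themselves. Sod1, the cytosolic enzyme that turns superoxide into peroxide, had 150.4, 147.5 and 141.7 CPM with Irf1 siRNA, against 122.8, 110.7 and 124.9 CPM with control siRNA, and rose by 0.29 (log2, SE 0.06, adjusted p = 0.00239, edgeR). Sod2 in mitochondria (log2 fold change 0.06, adjusted p = 0.474) and the secreted Sod3 (-0.18, adjusted p = 0.299) were not called by edgeR. The list had 1 gene higher in place of 3 without Irf1 siRNA replicate 3 or control siRNA replicate 2.

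Catalase sits in peroxisomes, and of 21 tested genes for the making of that organelle 2 rose and 2 fell. Pex5, the receptor that imports catalase, had 43.9, 40.2 and 40.8 CPM with Irf1 siRNA, against 51.3, 53.0 and 52.3 CPM with control siRNA, and fell by 0.33 (log2, SE 0.06, adjusted p = 0.00116, edgeR). Pex19, a chaperone of peroxisomal membrane proteins, fell by 0.40 (log2, SE 0.07, adjusted p = 0.000426, edgeR). The count of genes higher was 0 or 1, by edgeR, when any single library other than Irf1 siRNA replicate 2 was left out. Cat itself stayed uncalled beside these.

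Gpx4 and Prdx6 act on phospholipid peroxides, and of 14 tested genes of ferroptosis control 3 rose and 3 fell. Alox12, a lipoxygenase that makes lipid peroxides, averaged 9.34 ± 0.655 CPM with Irf1 siRNA and 16.7 ± 0.299 CPM with control siRNA, and fell by 0.84 (log2, SE 0.09, adjusted p = 6.2e-06, edgeR). Tfrc, the transferrin receptor that imports iron, rose by 0.50 (log2, SE 0.08, adjusted p = 0.000743, edgeR), and Slc40a1, the iron exporter ferroportin, fell by 0.69 (log2, SE 0.10, adjusted p = 0.000150, edgeR). Cisd2, an iron-sulfur protein, rose by 0.36 (log2, SE 0.07, adjusted p = 0.00111, edgeR). The remaining rise, that of Lpcat3 (log2 fold change 0.19, adjusted p = 0.0410, edgeR), was lost under 6 of the 13 alternatives.

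Among 16 tested genes of transcription factors and regulators known to act on antioxidant genes, 1 rose and 1 fell. Foxo1, a forkhead factor, had 51.6, 51.9 and 49.6 CPM with Irf1 siRNA, against 60.9, 61.7 and 58.1 CPM with control siRNA, and fell by 0.24 (log2, SE 0.06, adjusted p = 0.00778, edgeR). Mafk, a small Maf partner of NRF2, was higher by 0.22 (log2, adjusted p = 0.0370, edgeR), and its call was lost without Irf1 siRNA replicate 1 or 2 or any 1 of the control siRNA replicates (adjusted p = 0.0514 to 0.139, edgeR). Nfe2l2, which encodes NRF2 (log2 fold change 0.13, adjusted p = 0.110), its inhibitor Keap1 (0.06, adjusted p = 0.566) and Foxo3 (-0.08, adjusted p = 0.322) were not called by edgeR.

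The stretch before the start of Prdx1 is shown because Prdx1 and Srxn1 rose here, and both are known targets of NRF2 in the mouse. Both also hold the core of the antioxidant response element, the motif NRF2 binds. The pair was picked after its rises were seen. Of other NRF2 targets, Txnrd1 and Gclc rose as well. Gclm (log2 fold change -0.17, adjusted p = 0.107) and Slc7a11 (0.08, adjusted p = 0.467) were not called by edgeR. Of genes in the lists above, Gsr, Txn1, G6pdx, Pgd, Tkt, Taldo1 and Me1 were not called either, and Prdx6 fell. The targets named are a selection, and no pattern of NRF2 targets is read from them. The activity of NRF2 was not tested. The motif searched was TGANNNNGC on both strands, in windows from 250 bases before to 50 after each start in RefSeq (GRCm38.p6). The Prdx1 stretch is chr4:116685349-116685498 on the plus strand, from 250 to 101 bases before the start, and capitals mark a core read on the opposite strand.
Prdx1: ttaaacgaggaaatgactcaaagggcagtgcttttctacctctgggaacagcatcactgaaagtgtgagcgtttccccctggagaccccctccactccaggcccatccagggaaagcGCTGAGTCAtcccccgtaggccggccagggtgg
Of the 10 genes 9 had a promoter entry, Prdx6 not being among them, and 2 of the 9, Prdx1 (2 cores) and Prdx5 (1 core), held one; Prdx5 was not called. The core is common: 42.4% of the promoters of tested genes and 41.3% of all promoters in the table held one, with 41.7% among genes called higher and 43.5% among genes called lower. The interferon-stimulated response element core (GAAA, any 2 bases, GAAA), a motif of interferon regulatory factors, was in none of the 9 and in 2.81% of the promoters of tested genes. These matches describe letters only.

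The genes that fell were also looked at for 7-base words in their 3′ untranslated regions, because ACTGATC and the overlapping word CTGATCA, along with GCTATCT and the overlapping word CTATCTA, had gone with lower genes in an earlier look at the same data. At least 1 of them was present in 22.6% of the tested genes with such a region of 50 bases or more. The share was 43.9% among genes called lower, 14.6% among genes called higher and 20.0% among genes not called; since the words were picked for going with lower genes in these data, these shares restate that choice and support nothing. Of the 10 peroxidase genes 3 held a word, Prdx3, Prdx6 and Prdx1, and capitals mark it in sites read from the GRCm38 transcripts of GENCODE M21.
Prdx3: ggaagcttCTGATCAaggtccta
Prdx6: ataaaatcCTGATCAgaaaaccg
Prdx1: gatctctcACTGATCtagaactt
The Prdx3 site is in its only coding transcript, the Prdx6 site in 1 of 2 and the Prdx1 site in 1 of 5, and Prdx1 rose while Prdx3 and Prdx6 fell. That Prdx1 transcript alone of the 5 has a 3′ untranslated region of 50 bases or more (1566 bases). The others have at most 16 bases, so they were not searched. Gpx3 held none. Irf1, the target of the siRNA, held CTGATCA and CTATCTA, and of the fallen partner genes Selenon, Qsox2, Pex19, Sesn3 and Foxo1 held at least 1 word, while Gpx7, Nxn, Slc25a39 and Pex5 held none. The part of these words in the falls of Prdx3 and Prdx6 was not tested.

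By Pearson correlation of log2 CPM over the 6 libraries, among the 9054 genes that averaged 10 CPM or more, the genes most like Prdx1 were Ccn3 (r = 0.998), Glyr1 (0.995) and Rassf3 (0.995). For Prdx6 they were Hjurp (1.00), Serinc2 (0.999) and Zfyve9 (0.998). Such values are common where 2 groups differ: 246 genes passed 0.95 for Prdx1 and 513 for Prdx6. They are descriptions over 6 libraries that share the treatment.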

How the data were processed

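RNA-seq libraries were made from 6 samples with a stranded kit that selects mRNA, per the labels' protocols. The authors deposited raw read counts per gene, as whole numbers that are not normalised, 1 table per library. The submitters' processing notes name FastQC, Trimmomatic 0.39, STAR and the build GRCm39 (mm39). Which tool, annotation release and strand setting produced the counts is not given in the sources used here. Overlapping, antisense and near-identical genes can therefore share reads, and 79 symbols belong to more than 1 identifier.

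Counts were fitted in R 4.3.3 with edgeR 4.0.16: filterByExpr by group (14683 genes, 99.9% of counts), TMM factors, glmQLFit with the robust option and a two-sided glmQLFTest of Irf1 siRNA against control siRNA with no other term. P-values were adjusted by Benjamini and Hochberg across every gene tested, and called means below 0.05. The SE is the absolute log2 fold change over the root of F. Levels are TMM-normalised CPM, mean ± SD, n = 3. An exact permutation test of 3 against 3 cannot give a p below 0.1, so none was used.

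The 10 genes, the pathway and marker lists and the rule for named genes were chosen with earlier results of these data known. The rule takes the 10 genes, Irf1, their measured relatives, up to 4 called genes with the smallest adjusted p per list, 13 fixed partner genes and the 3 genes most alike to Prdx1 and to Prdx6. Genes named beyond it were chosen after their values were seen. They were Glrx2, Glrx5, Txnip, Gclm, Slc7a11, G6pdx, Pgd, Tkt, Taldo1, Me1, Lox, Loxl1, Loxl4, Lpcat3, Gpx4-ps2, the markers and the overlapping neighbours. No list was tested as a set. Some genes named by this rule are not reported here.

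The 13 alternatives were DESeq2 1.42.0, RLE, upper-quartile or no factors, no filter, a mean of at least 1 CPM, the replicate number as a block, and leaving out each of 6 libraries. Chi-square statistics between libraries of a group were 5.75 to 16.5 times their degrees of freedom, above sampling noise, so none was a copy. GENCODE M21 and the RefSeq promoter table describe GRCm38, not the authors' build, and were joined by gene identifier or symbol. Proteins were not used here.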

Additional observations from a re-analysis of the deposited data

How the results depend on the processing

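Irf1, Prdx1, Prdx3 and Prdx6 kept their direction and their call under all 13 alternatives, and 3 or 4 of the 10 genes were called under each. Gpx3 was not past the threshold with upper-quartile factors (log2 fold change -0.18, adjusted p = 0.0723), library totals only (-0.18, adjusted p = 0.0727) or DESeq2 (-0.20, adjusted p = 0.0542), and leaving out single libraries gave -0.24 to -0.14; the cause was not tested. The sign of Gpx1, which was never called, turned with upper-quartile factors (log2 fold change 0.00096, adjusted p = 0.993), and leaving out single libraries gave Cat log2 fold changes of -0.071 to 0.021. Over all genes, 1522 were called higher and 1767 lower; leaving out single libraries gave 959 to 1398 higher, the lowest without Irf1 siRNA replicate 3 and 980 without control siRNA replicate 2, and 1276 to 1716 lower. Fewer samples enter those fits. Upper-quartile factors gave 1853 higher and 1548 lower, and library totals only gave 1723 higher and 1469 lower. With the replicate number as a block, 3728 genes were called and the calls of the 10 genes were as before. Deviations of same-numbered libraries correlated at 0.43, -0.21 and 0.05. Control siRNA replicate 3 correlated at 0.55 with Irf1 siRNA replicate 2 and at -0.56 with Irf1 siRNA replicate 1. With so few libraries a group, such values cannot decide whether the numbers pair the samples. Each of the 10 genes had at least 1193 counts in every library; counting error is widest for the genes with the fewest.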
